A study of Mus musculus with 18 samples.

Results

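The Notch pathway was followed through 10 genes, chosen by name as its receptors *Notch1*, *Notch2* and *Notch3*, its ligands *Dll1*, *Dll3* and *Jag1*, and its target genes *Hes1*, *Hes5*, *Hey1* and *Nrarp*. All 10 were matched by Ensembl identifier among 55153 genes of the RNA-seq tables and were also among the 14348 genes that have Ribo-seq counts in every library. The tissue was the cerebral cortex of C57BL/6 mouse embryos at embryonic day 15.5, from wild-type mice (Ctrl), mice with *Fto*(f/f, Emx1-cre) (*F*-cKO) and mice with *Mettl3*(f/f, Emx1-cre) (*M*-cKO). *Mettl3* encodes the enzyme that writes the RNA mark m6A and *Fto* encodes an enzyme that removes it. RNA-seq, which measures transcript level, and Ribo-seq, which counts the RNA fragments held by ribosomes, were each done on 3 libraries per group, so 18 libraries in all. *Emx1*-Cre recombines in dorsal cortical progenitors and the cells that come from them, so interneurons, vessels and blood-derived cells of the dissected cortex keep the targeted gene. The floxed lines were of mixed strain background according to the methods, and the Ctrl group is labelled as wild type. The paper describes Ctrl mice as littermates of the knockouts. The comparisons ask whether loss of the m6A writer or of the eraser is accompanied by a different level, ribosome occupancy or translation efficiency of Notch pathway transcripts in a cortex that is producing neurons.

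Notch receptors are membrane proteins that are activated by ligands on a neighbouring cell. Cleavage by ADAM proteases and then γ-secretase frees the intracellular domain, which joins RBPJ and Mastermind-like proteins in the nucleus and switches on *Hes*, *Hey* and *Nrarp* genes. In the embryonic cortex this signalling holds radial glial cells as progenitors. Intermediate progenitors and new neurons present the ligands, and HES proteins repress proneural genes such as those of neurogenins.

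Total counts per library were between 18504094 and 22592406 in RNA-seq and between 10973699 and 35853227 in Ribo-seq, with the lowest in *F*-cKO replicate 2 of Ribo-seq. The RNA-seq FPKM of *Fto* was 10.8, 11.2 and 8.37 in Ctrl and 3.26, 7.56 and 2.43 in *F*-cKO, with *F*-cKO replicate 2 nearest to Ctrl. The Ribo-seq RPKM of *Fto* was 17.6 to 25.9 in Ctrl and 2.11 to 4.04 in *F*-cKO. *Mettl3* was higher in RNA-seq in the libraries labelled *M*-cKO, at 7.82 to 8.61 FPKM compared to 5.07 to 6.43 in Ctrl, and lower in Ribo-seq, at 6.02 to 6.78 RPKM compared to 9.16 to 9.93. The counts cover the whole gene, including exons outside the floxed part, so a gene total in RNA-seq does not by itself check the deletion. Markers of the cortex were present in all groups: the summed FPKM of 10 radial glial markers was 882 to 979 in Ctrl libraries, 844 to 907 with *Fto* deleted and 668 to 728 with *Mettl3* deleted, and that of 8 intermediate progenitor markers was 174 to 277, 326 to 389 and 310 to 351 in the same order. None of the 10 Notch genes is in either list. In such bulk tissue, fewer cells of a type and less RNA per cell cannot be told apart.

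The genes that signal to each other lie on several chromosomes, and short stretches of promoters are shown where they hold a DNA word known to be bound by factors of the pathway. RBPJ, the DNA-binding partner of the Notch intracellular domain, binds GTGGGAA, and the 250 bases before the *Hes5* start hold that word on each strand. The bases in capitals mark the matched word, from RefSeq, build GRCm38.p6, 5′ to 3′ on the strand of *Hes5* (plus).
Hes5, 226 bases before the start, chr4:154960687-154960713: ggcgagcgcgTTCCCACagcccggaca
Hes5, 83 bases before the start, chr4:154960830-154960856: gccgccgagtGTGGGAAcggccgcggc
GTGGGAA on either strand is found in 5.43% of 32536 promoters of this length, and in no other promoter of the members in the RefSeq table. The start used here lies inside the longer RefSeq span of *Hes5*. *Hes1* and *Hey1* promoters were not analysed here.

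The promoters of all 3 ligands hold the E-box CAGCTG, a word bound by proneural basic helix-loop-helix factors, which switch on Delta ligands. The stretches are shown for the comparison of the ligands and are written on the strand of each gene (minus for all 3), with the E-box in capitals.
Dll1, 132 bases before the start, chr17:15377049-15377074: cattaccataCAGCTGagcgcacaaa
Dll3, 7 bases before the start, chr7:28301786-28301802: cggcatccagCAGCTGc
Jag1, 82 bases before the start, chr2:137116587-137116612: gcgtttcatgCAGCTGatctgaaagg
This word is found in 13.1% of the 32536 promoters and in none of the receptor, *Hes5* or *Nrarp* promoters. *Dll1* has a second listed start, whose promoter lacks it. The N-box CACNAG, which HES proteins bind, was in the promoters of *Notch1*, *Notch2*, *Notch3* and *Nrarp*, and in 36.7% of all promoters. CACNAG and CAGCTG were searched on both strands and do not overlap GTGGGAA. A match of letters is a description of the sequence and was not set against binding data.

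In RNA-seq, 7 of the 10 genes were higher in *F*-cKO than in Ctrl and 7 were higher in *M*-cKO, and none was lower in either (quasi-likelihood test of edgeR, *P* below 0.05 after Benjamini-Hochberg adjustment over all genes tested). Over all genes tested, 11.5% were called higher and 9.57% lower in *F*-cKO, and 15.5% higher and 14.1% lower in *M*-cKO. *Notch1*, *Notch3*, *Dll1*, *Hey1* and *Nrarp* were called in each comparison, *Notch2* and *Dll3* in *F*-cKO, and *Hes1* and *Hes5* in *M*-cKO. The median log2 change of the 10 genes from Ctrl was 0.551 for *F*-cKO, beside −0.0127 for all genes, and 0.501 for *M*-cKO, beside −0.00983. *Jag1* was the member that passed in neither comparison. Both comparisons use the same 3 Ctrl libraries, so a shift in Ctrl enters both.

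**Figure D1:**
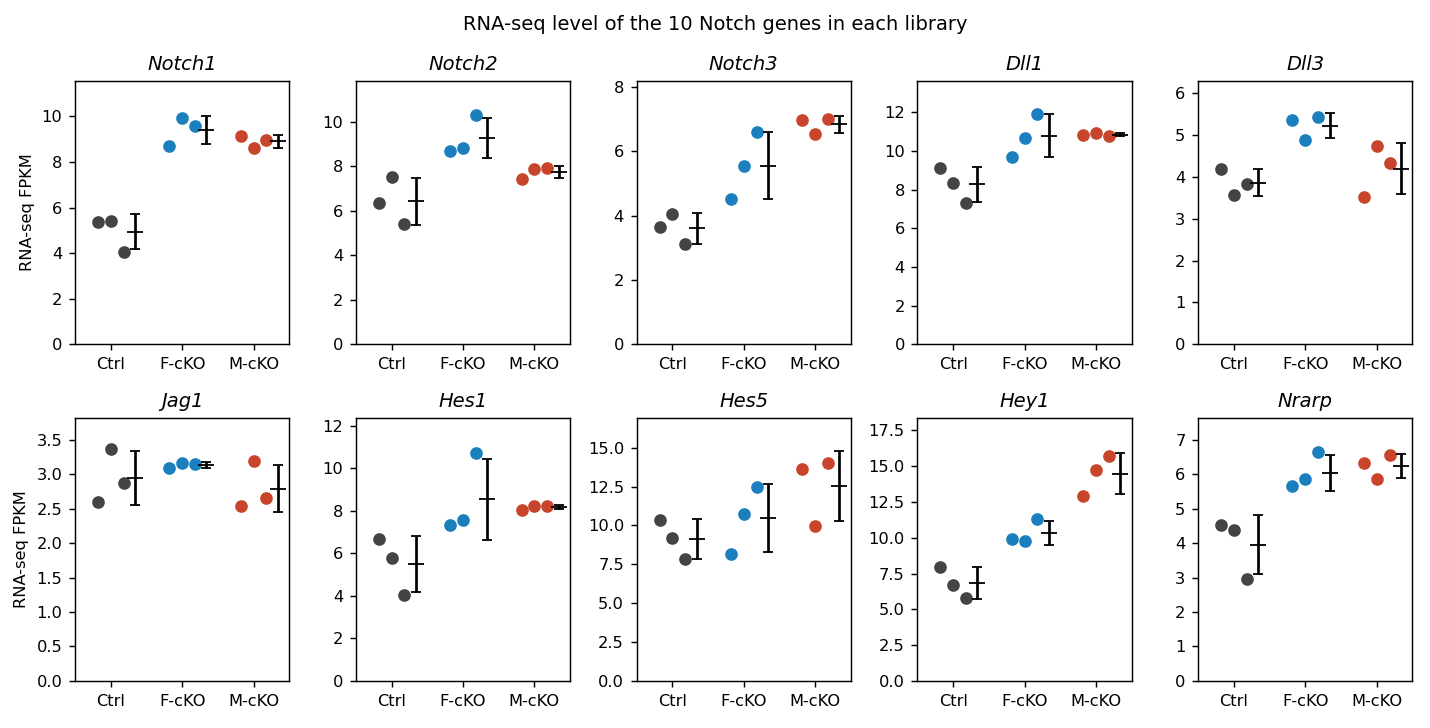
RNA-seq FPKM (linear axis from 0) of each of the 10 genes in the 3 Ctrl, 3 *F*-cKO and 3 *M*-cKO libraries, drawn as points in the order of replicates 1 to 3, with the group mean and SD as the black bar. For *Notch1* all knockout libraries lie between 8.61 and 9.91 FPKM, above the Ctrl libraries at 4.06 to 5.40, while for *Jag1* the 3 groups overlap.

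*Notch1* (ENSMUSG00000026923, chr2:26457902-26503822), the main Notch receptor of cortical progenitors, had 5.37, 5.40 and 4.06 FPKM in Ctrl replicates 1 to 3, 8.71, 9.91 and 9.57 FPKM in *F*-cKO and 9.15, 8.61 and 8.95 FPKM in *M*-cKO. Every knockout library stood above every Ctrl library, and the 2 knockouts overlapped. Its log2 change was 0.91 ± 0.11 (SE, edgeR adjusted *P* = 0.00293) in *F*-cKO and 0.84 ± 0.10 (edgeR adjusted *P* = 0.000121) in *M*-cKO, that is 1.89-fold and 1.79-fold. *Notch2* (ENSMUSG00000027878, chr3:98013538-98150367), a second receptor of neural stem cells, had 6.36, 7.53 and 5.41 FPKM in Ctrl, 8.68, 8.83 and 10.3 FPKM in *F*-cKO and 7.44, 7.89 and 7.92 FPKM in *M*-cKO. The *F*-cKO libraries stood above all others, and *M*-cKO overlapped with Ctrl through Ctrl replicate 2. The log2 change of *Notch2* was 0.52 ± 0.12 (edgeR adjusted *P* = 0.0142) in *F*-cKO and 0.26 ± 0.10 (edgeR adjusted *P* = 0.0732) in *M*-cKO. *Notch2* passed in *M*-cKO with DESeq2 (adjusted *P* = 0.0409), and with edgeR without the filter on low counts (adjusted *P* = 0.00205) or without Ctrl replicate 2 (adjusted *P* = 0.00535). Dropping the filter also moved the smallest edgeR adjusted *P* over all genes, from 1.09e-06 to 2.76e-154, so its values are not on the scale of the other fits. *Notch3* (ENSMUSG00000038146, chr17:32120820-32166896), which is also a receptor of pericytes and smooth muscle around vessels, had 3.64, 4.05 and 3.10 FPKM in Ctrl, 4.53, 5.55 and 6.60 FPKM in *F*-cKO and 6.98, 6.53 and 7.01 FPKM in *M*-cKO. Ctrl was below both knockouts in every library, and the knockouts overlapped through *F*-cKO replicate 3. The log2 change of *Notch3* was 0.62 ± 0.14 (edgeR adjusted *P* = 0.0158) in *F*-cKO and 0.92 ± 0.09 (edgeR adjusted *P* = 7.69e-05) in *M*-cKO. The summed FPKM of 8 pericyte and smooth muscle markers, all found above 0, was 28.7 to 32.8 in Ctrl libraries, so above the 21.5 to 25.5 of *F*-cKO libraries and the 22.6 to 26.8 of *M*-cKO libraries, and its part in the result was not tested. RefSeq places 0610009E02Rik and Mir6996 over *Notch1*, Gm40103 over *Notch2*, Gm38585 and Gm41568 over *Notch3*, and the sources used here do not state if reads were counted by strand.

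*Dll1* (ENSMUSG00000014773, chr17:15367354-15376932), the Delta ligand of intermediate progenitors and new neurons, had 9.14, 8.36 and 7.31 FPKM in Ctrl, 9.71, 10.7 and 11.9 FPKM in *F*-cKO and 10.8, 10.9 and 10.8 FPKM in *M*-cKO. All knockout libraries lay above Ctrl, with *F*-cKO replicate 1 close to Ctrl replicate 1. Its log2 change was 0.37 ± 0.10 (edgeR adjusted *P* = 0.0311) in *F*-cKO and 0.38 ± 0.09 (edgeR adjusted *P* = 0.00663) in *M*-cKO. *Dll3* (ENSMUSG00000003436, chr7:28293555-28301785), a divergent Delta protein that acts on Notch within the same cell, had 4.20, 3.56 and 3.82 FPKM in Ctrl, 5.35, 4.89 and 5.43 FPKM in *F*-cKO and 3.52, 4.73 and 4.33 FPKM in *M*-cKO. *F*-cKO stood above both other groups, and *M*-cKO lay on each side of Ctrl. The log2 change of *Dll3* was 0.43 ± 0.11 (edgeR adjusted *P* = 0.025) in *F*-cKO and 0.11 ± 0.14 (edgeR adjusted *P* = 0.589) in *M*-cKO. *Jag1* (ENSMUSG00000027276, chr2:137081451-137116520), a ligand of the Serrate type, had 2.60, 3.37 and 2.87 FPKM in Ctrl, 3.09, 3.17 and 3.16 FPKM in *F*-cKO and 2.54, 3.19 and 2.65 FPKM in *M*-cKO. The 3 groups overlapped, and *Jag1* was the least abundant member per length in each of them. The log2 change of *Jag1* was 0.08 ± 0.11 (edgeR adjusted *P* = 0.648) in *F*-cKO and −0.09 ± 0.13 (edgeR adjusted *P* = 0.66) in *M*-cKO. The summed level of intermediate progenitor markers, given above, was also above Ctrl in all knockout libraries, and its part in the result for *Dll1* was not tested.

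*Hes1* (ENSMUSG00000022528, chr16:30065357-30067796), a repressor of proneural genes, had 6.66, 5.79 and 4.04 FPKM in Ctrl, 7.32, 7.56 and 10.7 FPKM in *F*-cKO and 8.05, 8.22 and 8.22 FPKM in *M*-cKO. All knockout libraries lay above Ctrl, and *F*-cKO replicate 3 was well above the other *F*-cKO libraries. Its log2 change was 0.62 ± 0.20 (edgeR adjusted *P* = 0.052) in *F*-cKO and 0.56 ± 0.15 (edgeR adjusted *P* = 0.0189) in *M*-cKO. DESeq2 called *Hes1* in *F*-cKO also (adjusted *P* = 0.0118). *Hes5* (ENSMUSG00000048001, chr4:154960626-154962372), the HES repressor most tied to Notch in cortical radial glia, had 10.4, 9.20 and 7.84 FPKM in Ctrl, 8.16, 10.8 and 12.5 FPKM in *F*-cKO and 13.6, 9.95 and 14.0 FPKM in *M*-cKO. Both knockouts overlapped with Ctrl, through *F*-cKO replicate 1 and *M*-cKO replicate 2. The log2 change of *Hes5* was 0.18 ± 0.17 (edgeR adjusted *P* = 0.466) in *F*-cKO and 0.45 ± 0.15 (edgeR adjusted *P* = 0.0408) in *M*-cKO. The *M*-cKO call of *Hes5* was lost in 4 of 6 fits that each left out a library, with edgeR adjusted *P* up to 0.13, and also with all 9 libraries in a fit (0.0669). The *M*-cKO call of *Hes1* was lost without *M*-cKO replicate 2 (edgeR adjusted *P* = 0.0562).

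*Hey1* (ENSMUSG00000040289, chr3:8663359-8667038), a related repressor, had 7.98, 6.70 and 5.78 FPKM in Ctrl, 9.88, 9.79 and 11.3 FPKM in *F*-cKO and 12.9, 14.8 and 15.7 FPKM in *M*-cKO. The 3 groups were fully separate, in the order Ctrl, *F*-cKO, *M*-cKO. Its log2 change was 0.58 ± 0.12 (edgeR adjusted *P* = 0.0101) in *F*-cKO and 1.07 ± 0.12 (edgeR adjusted *P* = 0.000104) in *M*-cKO, the largest of the 10 genes in *M*-cKO, at 2.1-fold. RefSeq places LOC115489673 over *Hey1*. *Nrarp* (ENSMUSG00000078202, chr2:25180758-25183339), a Notch-induced protein that limits the activity of the intracellular domain, had 4.53, 4.38 and 2.96 FPKM in Ctrl, 5.65, 5.85 and 6.64 FPKM in *F*-cKO and 6.31, 5.85 and 6.55 FPKM in *M*-cKO. All knockout libraries lay above Ctrl and the knockouts overlapped. The log2 change of *Nrarp* was 0.60 ± 0.16 (edgeR adjusted *P* = 0.0283) in *F*-cKO and 0.64 ± 0.15 (edgeR adjusted *P* = 0.00809) in *M*-cKO.

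Counted by library, 8 of the 10 genes had all 3 *F*-cKO FPKM values above all 3 Ctrl values, beside 15.6% of all genes with an FPKM. For *M*-cKO this held for 6 of the 10, beside 16.3%. No member had all knockout values below Ctrl, beside 14.9% of all genes for *F*-cKO and 16.9% for *M*-cKO. Ctrl replicate 3 was the lowest Ctrl library for 8 of the 10 genes. The intermediate progenitor markers were also lowest there, at 174 FPKM compared to 254 and 277 in the other Ctrl libraries, and their part in the result was not tested. Without Ctrl replicate 3, edgeR called 3 members in *F*-cKO (*Notch1*, *Notch2* and *Hey1*), and the median log2 change over the 10 genes was 0.424. Calls over all genes also fell in that fit, to 5.69% higher and 3.23% lower. Without *F*-cKO replicate 2 or without *F*-cKO replicate 3 it called 4, namely these and *Notch3*, beside 6.62% and 9.3% of all genes called higher. In *M*-cKO it called 6 members without Ctrl replicate 3, all but *Hes5* of the 7, beside 11.8% of all genes called higher and 8.65% lower. The calls of *Notch1* and *Hey1* were kept in all 6 fits that left out a library, in each knockout.

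In a direct comparison of the knockouts in RNA-seq, 1 member was higher in *M*-cKO than in *F*-cKO and 1 was lower, beside 13.1% and 14.3% of all genes (edgeR). *Hey1* was higher in *M*-cKO by 0.48 ± 0.10 on the log2 scale (edgeR adjusted *P* = 0.00544), and *Notch2* was lower by a log2 change of −0.27 ± 0.08 (edgeR adjusted *P* = 0.0294). The FPKM of *Hey1* was above and those of *Notch2* and *Dll3* were below *F*-cKO in all *M*-cKO libraries, as they were for 15.6% (above) and 16.2% (below) of all genes. For *Dll3* the log2 difference was −0.33 ± 0.13 (edgeR adjusted *P* = 0.0896), so this gene was called against Ctrl in *F*-cKO alone while the difference between the knockouts did not pass. The same holds for *Hes5*, called in *M*-cKO alone, with a log2 difference of 0.25 ± 0.17 (edgeR adjusted *P* = 0.308). *Notch2* lost its call in 5 of 6 fits that left out a library, and *Hey1* kept it in all 6.

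The order of levels was compared within groups, per length. In Ctrl RNA-seq *Hes5* was highest at 9.14 ± 1.27 FPKM (SD, n = 3), followed by *Dll1* at 8.27 ± 0.92, *Hey1* at 6.82 ± 1.11, *Notch2* at 6.43 ± 1.06, *Hes1* at 5.50 ± 1.34, *Notch1* at 4.94 ± 0.77, *Nrarp* at 3.96 ± 0.87, *Dll3* at 3.86 ± 0.32, *Notch3* at 3.60 ± 0.48 and *Jag1* at 2.94 ± 0.39 FPKM. Each neighbour in this order overlapped with the next. In *M*-cKO the order began with *Hey1* at 14.5 ± 1.43 and *Hes5* at 12.5 ± 2.24 FPKM, which overlapped, and ended with *Dll3* at 4.19 ± 0.61 and *Jag1* at 2.79 ± 0.34 FPKM, which did not. In *F*-cKO *Dll1*, *Hes5* and *Hey1* led at 10.8 ± 1.11, 10.5 ± 2.17 and 10.3 ± 0.83 FPKM, with overlapping libraries.

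Ribo-seq gave a different order. The repressors *Hes1* and *Hey1* led in Ctrl at 8.95 ± 0.79 and 8.31 ± 1.04 RPKM (SD, n = 3), and their libraries overlapped. Every other member was at 2.05 RPKM or lower, from *Notch2* at 2.05 ± 0.16 down to *Notch3* at 0.552 ± 0.0686 RPKM, and *Hey1* and *Notch2* did not overlap. *Hes5*, which had the highest Ctrl mean in RNA-seq with libraries that overlapped those of *Dll1*, was at 1.37 ± 0.54 RPKM. The Ribo-seq counts behind these Ctrl values ran from 28 for *Hes5* to 922 for *Hey1* per library. *Hes5*, *Nrarp* and *Dll3* therefore rest on far fewer fragments than *Notch1* or *Hey1*. Over all groups the counts were between 14 and 2815, both in *F*-cKO replicate 2.

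**Figure D2:**
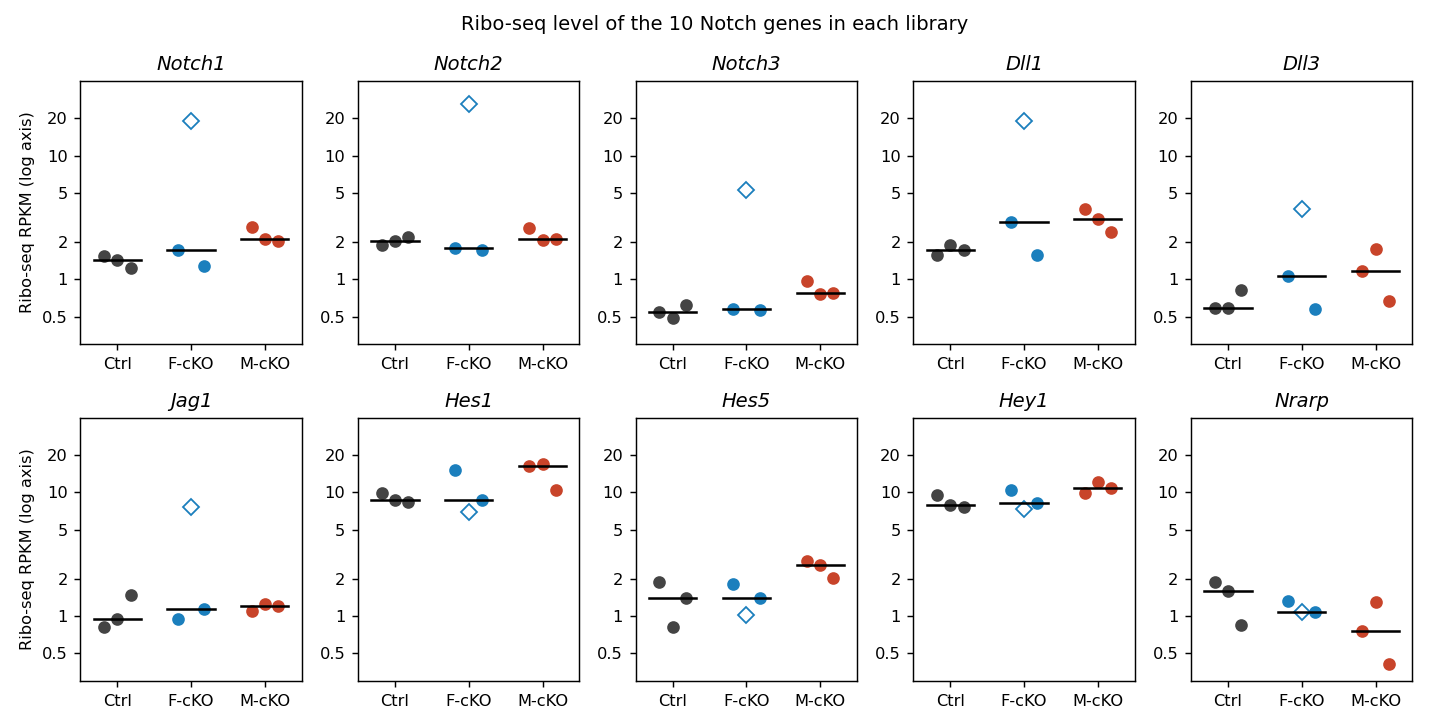
Ribo-seq RPKM (log axis) of each of the 10 genes in the 3 libraries of each group, in the order of replicates 1 to 3, with the group median as a black line and *F*-cKO replicate 2 as an open diamond. The diamond lies above all other libraries for the 6 receptors and ligands, at 3.73 to 25.9 RPKM, and within or near the others for the 4 targets.

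*F*-cKO replicate 2 of Ribo-seq stood apart for the receptors and ligands. *Notch1* had 1.73, 19.1 and 1.30 RPKM in *F*-cKO replicates 1 to 3, compared to 1.53, 1.44 and 1.24 in Ctrl. *Notch2* had 1.79, 25.9 and 1.73 RPKM in *F*-cKO and 1.89, 2.04 and 2.21 in Ctrl. *Notch3* had 0.572, 5.32 and 0.569 RPKM in *F*-cKO and 0.543, 0.489 and 0.625 in Ctrl. For all 3 receptors, replicates 1 and 3 lay in or near the Ctrl range, and the difference was made by replicate 2. *Dll1* had 2.90, 18.9 and 1.58 RPKM in *F*-cKO and 1.57, 1.89 and 1.73 in Ctrl. *Dll3* had 1.06, 3.73 and 0.574 RPKM in *F*-cKO and 0.590, 0.585 and 0.826 in Ctrl. *Jag1* had 0.941, 7.65 and 1.14 RPKM in *F*-cKO and 0.814, 0.954 and 1.49 in Ctrl. The ligands therefore showed the same pattern, and *Dll1* and *Dll3* were above Ctrl in replicate 1 as well.

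The 4 targets, which encode nuclear proteins or, for *Nrarp*, an intracellular one, did not share it. *Hes1* had 15.2, 6.92 and 8.64 RPKM in *F*-cKO and 9.86, 8.60 and 8.40 in Ctrl. *Hes5* had 1.80, 1.02 and 1.41 RPKM in *F*-cKO and 1.90, 0.816 and 1.41 in Ctrl. *Hey1* had 10.4, 7.26 and 8.13 RPKM in *F*-cKO and 9.50, 7.83 and 7.59 in Ctrl. For these repressors replicate 2 was the lowest *F*-cKO library. *Nrarp* had 1.32, 1.08 and 1.08 RPKM in *F*-cKO and 1.89, 1.60 and 0.850 in Ctrl, with the *F*-cKO libraries inside the Ctrl range. All 10 members overlapped between *F*-cKO and Ctrl in RPKM, where 3.04% of all genes lay wholly above and 4.13% wholly below. Relative to the mean of replicates 1 and 3, replicate 2 was 4.56 to 14.7 times as high for the 6 receptors and ligands and 0.581 to 0.896 times as high for the 4 targets.

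**Figure D3:**
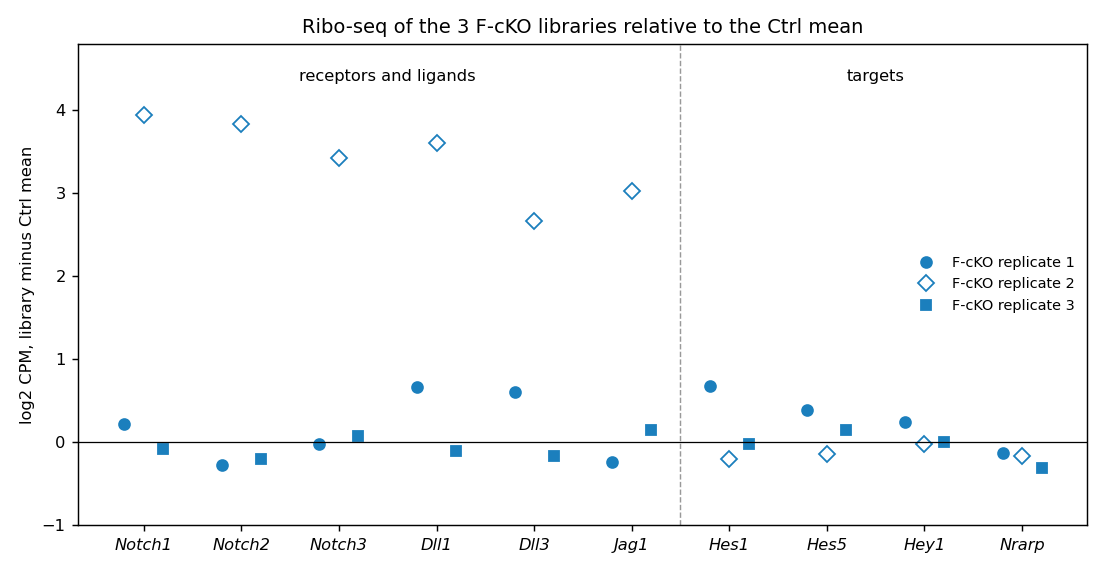
Log2 CPM of each of the 10 genes in the 3 *F*-cKO Ribo-seq libraries, each minus the Ctrl mean (0 line), with replicate 2 as open diamonds, and receptors and ligands to the left of the dashed line. Replicate 2 lies between 2.66 and 3.94 for receptors and ligands and between −0.201 and −0.0207 for targets.

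On the log2 CPM scale, replicate 2 differed from the Ctrl mean by a median of 3.52 for the 6 receptors and ligands and −0.158 for the 4 targets. For all 14336 genes with a mean count of at least 10 the median was −0.0259, and 9.51% of them were over 4-fold above the Ctrl mean. Among other Notch pathway genes the median difference was 2.15 for 6 further receptors and ligands, 1.88 for 9 genes of receptor cleavage, 0.00771 for 9 genes of the nuclear complex and 0.0598 for 13 corepressors. It was −0.0174 for 11 genes of ligand endocytosis and receptor glycosylation (from −0.903 to 2.78), −0.23 for 9 of inhibition and turnover, and −0.195 for 4 other *Hes* and *Hey* genes (from −0.851 to 3.21), so the step was not limited to receptors and ligands. In the same library the summed RPKM of 9 endothelial markers was 101, compared to 6.64 and 11.5 in the other *F*-cKO libraries and 8.80 to 13.8 in Ctrl. Its 9 excitatory neuron markers summed to 1761 RPKM, compared to 3736 and 4221 in the others. Its 8 pericyte and smooth muscle markers summed to 31.35 RPKM, near the 28.92 and 30.58 of the others. Its 7 microglia markers summed to 27.77, compared to 15.28 and 18.49, and its 6 meninges markers to 35.09, compared to 7.571 and 19.05. It was also the library of lowest depth, and the part of these values in the result was not tested. In RNA-seq the library labelled *F*-cKO replicate 2 showed no such step, with a median difference of 0.404 for the receptors and ligands beside 0.341 and 0.612 in the other *F*-cKO libraries.

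No member was called in Ribo-seq of *F*-cKO, where edgeR called 0% of all 14335 genes tested in each direction. At an unadjusted *P* below 0.05 edgeR gave 227 genes higher and 91 lower but no member, and DESeq2 called 5 genes higher and 1 lower, none a member. The fitted log2 change of *Notch1* was 2.55 ± 1.10 (edgeR adjusted *P* = 0.73) with all libraries and 0.08 without *F*-cKO replicate 2. For *Notch2* it was 2.42 ± 1.14 (edgeR adjusted *P* = 0.73) and −0.24 without that library. The median over the 10 genes was 1.61 with it and 0.103 without it.

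In Ribo-seq of *M*-cKO, *Notch1* and *Dll1* were called higher than in Ctrl and no member was called lower, beside 7.13% and 7.5% of all genes (edgeR). The median log2 change of the members was 0.658, beside −0.000284 for all genes. *Notch1* had 2.63, 2.12 and 2.06 RPKM in *M*-cKO, each above the 3 Ctrl values, with a log2 change of 0.70 ± 0.14 (edgeR adjusted *P* = 0.0208). *Dll1* had 3.68, 3.10 and 2.42 RPKM in *M*-cKO, also above Ctrl throughout, with a log2 change of 0.84 ± 0.19 (edgeR adjusted *P* = 0.0315). Leaving out any of the 3 Ctrl libraries or *M*-cKO replicate 1 ended both calls, leaving out *M*-cKO replicate 2 kept *Notch1* alone, and leaving out *M*-cKO replicate 3 kept both and added *Hes1*. The share of all genes called moved in the same fits, from 7.13% higher to between 0.804% and 3.49% in the fits that ended both calls, to 5.38% without *M*-cKO replicate 2 and to 9.09% without *M*-cKO replicate 3. The edgeR adjusted *P* in these fits rose to 0.0926 for *Notch1* and 0.101 for *Dll1*. The log2 change stayed between 0.62 and 0.78 for *Notch1* and between 0.72 and 1.00 for *Dll1* in those fits.

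*Hes1* had 16.4, 16.98 and 10.5 RPKM in *M*-cKO and *Hes5* had 2.81, 2.60 and 2.02, all above their Ctrl values. The log2 change was 0.72 ± 0.21 (edgeR adjusted *P* = 0.0542) for *Hes1* and 0.85 ± 0.34 (edgeR adjusted *P* = 0.128) for *Hes5*. DESeq2 called *Hes1* (adjusted *P* = 0.00553). *Hey1* had 9.91, 12.1 and 10.9 RPKM, also above Ctrl, with a log2 change of 0.42 ± 0.15 (edgeR adjusted *P* = 0.0945). *Notch3* had 0.966, 0.768 and 0.784 RPKM, above Ctrl, with a log2 change of 0.61 ± 0.19 (edgeR adjusted *P* = 0.0711). In all, 6 members had all *M*-cKO libraries above Ctrl in RPKM, beside 17.5% of all genes, and none had all of them below, beside 20.4%. The other 4 overlapped with Ctrl: *Notch2* at 2.60, 2.10 and 2.11, *Dll3* at 1.17, 1.76 and 0.669, *Jag1* at 1.09, 1.24 and 1.21, and *Nrarp* at 0.752, 1.31 and 0.410 RPKM. *Nrarp* had the only negative log2 change among the 10 genes in this comparison, at −0.81 ± 0.48 (edgeR adjusted *P* = 0.27), while its RNA was called higher.

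In Ribo-seq, radial glial markers summed to 1161 to 1594 RPKM in *M*-cKO and 2084 to 2333 in Ctrl, and 10 ganglionic eminence and interneuron markers to 83.5 to 151 compared to 54.5 to 79.7. In RNA-seq the latter summed to 147 to 195 FPKM in *M*-cKO and 102 to 108 in Ctrl. Their part in the members' changes was not tested. Between the knockouts, edgeR called no gene in Ribo-seq (0% of 14262), with 710 genes higher and 444 lower at an unadjusted *P* below 0.05, while DESeq2 called 172 genes higher and 28 lower, none a member. *Hes5* alone had all *M*-cKO libraries above *F*-cKO in RPKM, beside 8.01% of all genes, and no member had all of them below, beside 5.64%.

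**Figure D4:**
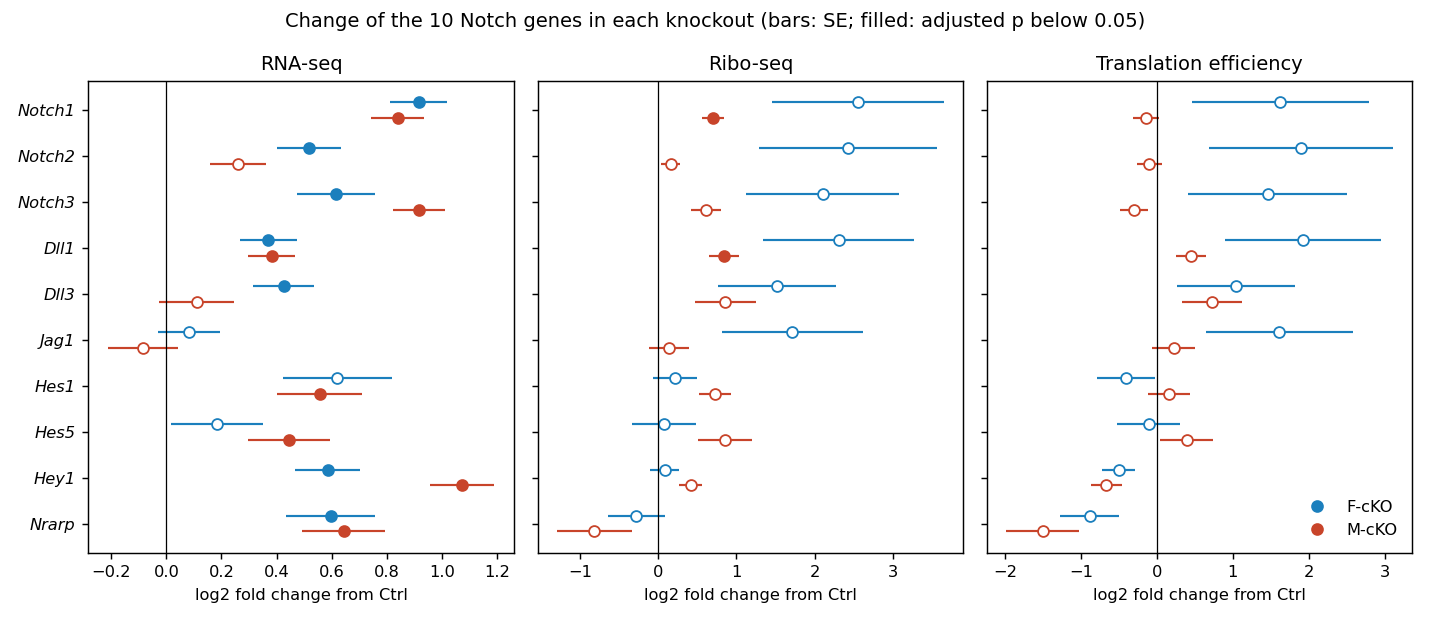
Log2 fold change from Ctrl (x axis, scale differs by panel) of each of the 10 genes in RNA-seq, Ribo-seq and translation efficiency, for *F*-cKO (blue) and *M*-cKO (red), with bars of 1 SE and filled points for an edgeR adjusted *P* below 0.05. In RNA-seq 7 points of each knockout are filled, in Ribo-seq only *Notch1* and *Dll1* of *M*-cKO are, and in translation efficiency none is; the wide bars of *F*-cKO in Ribo-seq come with replicate 2 in the fit.

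Translation efficiency, the change in Ribo-seq relative to the change in RNA-seq, was tested as an interaction of assay and genotype over 12 libraries. No member was called in *M*-cKO, where edgeR called 1.42% of 13208 genes higher and 2.42% lower. At an unadjusted *P* below 0.05 edgeR gave 3 members, beside 1166 genes higher and 1786 lower among all 13208. *Nrarp* had a log2 change of −1.50 ± 0.48 (edgeR adjusted *P* = 0.0908) and *Hey1* of −0.66 ± 0.20 (edgeR adjusted *P* = 0.0745), so both values were negative and neither passed. The third, *Dll1*, had a log2 change of 0.45 ± 0.20 (edgeR adjusted *P* = 0.195). DESeq2 called *Hey1* and *Nrarp* lower (adjusted *P* = 0.0428 and 0.0331). The receptors had −0.14 ± 0.17 for *Notch1*, −0.10 ± 0.17 for *Notch2* and −0.30 ± 0.18 for *Notch3* on the log2 scale (edgeR adjusted *P* = 0.67, 0.761 and 0.343). Of the remaining members, *Dll3* had 0.73 ± 0.40, *Hes5* 0.39 ± 0.35, *Jag1* 0.22 ± 0.28 and *Hes1* 0.16 ± 0.28. The median of the 10 genes was 0.0302, beside −0.0506 for all genes.

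In *F*-cKO edgeR called 0% of 13225 genes for translation efficiency in each direction, with 510 higher and 582 lower at an unadjusted *P* below 0.05, and DESeq2 called 8 higher and 47 lower, none a member. *Hey1* and *Nrarp* were the 2 members with an unadjusted *P* below 0.05, at log2 changes of −0.50 ± 0.22 and −0.88 ± 0.39 (edgeR adjusted *P* = 0.577 for each). The 6 receptors and ligands had positive values of 1.05 to 1.93 with all libraries. Without *F*-cKO replicate 2 of Ribo-seq all 10 members were negative, with a median of −0.355. Of them, 5 had an unadjusted *P* below 0.05 while their smallest edgeR adjusted *P* was 0.129. Over all 13225 genes of that fit, 786 were higher and 1030 lower at an unadjusted *P* below 0.05 (edgeR), and the median log2 change was −0.0176. Between the knockouts no gene of 13162 was called by edgeR (0%), with 219 genes higher and 278 lower at an unadjusted *P* below 0.05 and no member among them, and DESeq2 called 15 higher and 3 lower, none a member.

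Dividing the mean RPKM of Ribo-seq by the mean FPKM of RNA-seq gives a level of ribosome occupancy per transcript, described here without a test. Both units divide by length, and which length the authors used for each is not given in the sources used here. In Ctrl *Hes1* was at 1.63 ± 0.42 (propagated SD) and *Hey1* at 1.22 ± 0.25, above the median of 0.932 over 13751 genes. The other 8 members lay between 0.150 for *Hes5* and 0.368 for *Jag1*, below that median. Of all genes, 5.11% were below *Hes5*, 5.32% below *Notch3* and 72.6% below *Hes1*. By these Ctrl means *Hes1* was the highest member, and *Hes5* at 0.150 ± 0.063 was the lowest, within the SD of *Notch3* at 0.153 ± 0.028. In *M*-cKO *Notch3* was lower, at 0.123 ± 0.017, than *Hes5* at 0.197 ± 0.048. In *M*-cKO, *Nrarp* was at 0.132 ± 0.073 compared to 0.365 ± 0.157 in Ctrl, *Hey1* at 0.758 ± 0.107 compared to 1.22 ± 0.25, and *Hes1* at 1.79 ± 0.44. In *F*-cKO without replicate 2 of Ribo-seq, *Nrarp* was at 0.199, *Hey1* at 0.896 and *Notch1* at 0.161, compared to 0.284 ± 0.054 for *Notch1* in Ctrl.

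**Figure D5:**
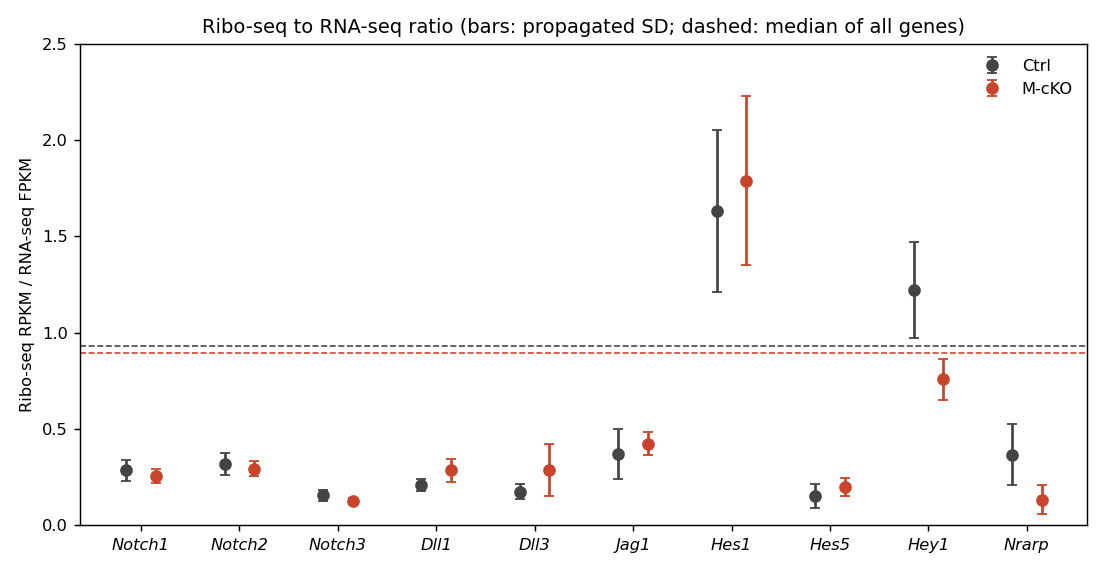
Mean RPKM in Ribo-seq divided by mean FPKM in RNA-seq (y axis from 0) of the 10 genes in Ctrl and *M*-cKO, with the SD propagated from 3 libraries of each assay and the median of all genes as dashed lines. *Hes1* and, in Ctrl, *Hey1* stand above the medians of 0.932 and 0.894, and the other 8 genes stand at 0.423 or below.

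A list of 63 further Notch pathway genes was read in the same fits. In RNA-seq 17 of 61 tested were higher and 8 lower in *F*-cKO, and 16 were higher and 9 lower in *M*-cKO (edgeR), with median log2 changes of 0.0672 and 0.108. The shares of all tested genes, given above, were 11.5% (higher) and 9.57% (lower) for *F*-cKO and 15.5% and 14.1% for *M*-cKO, so the counts of lower genes were near the background. The counts by role below are of few genes each and are read against the same shares. Of 9 genes of the nuclear complex, 5 were higher and none lower in each knockout (the comparisons share Ctrl), among them *Maml3*, a Mastermind-like coactivator, with a log2 change of 0.70 ± 0.14 in *F*-cKO (edgeR adjusted *P* = 0.00916) and 1.05 ± 0.15 in *M*-cKO (edgeR adjusted *P* = 0.000419). *Rbpj*, which encodes the DNA-binding protein of the complex, changed by 0.60 ± 0.09 (edgeR adjusted *P* = 0.00443) and 0.40 ± 0.08 (edgeR adjusted *P* = 0.00503). *Maml1* had 0.30 ± 0.12 in *F*-cKO (edgeR adjusted *P* = 0.108) and 0.64 ± 0.11 in *M*-cKO (edgeR adjusted *P* = 0.00199). Of 13 corepressors, 8 were higher and 1 lower in *F*-cKO, and 3 were higher and 1 lower in *M*-cKO. They include *Kdm5a*, a histone demethylase, with 0.56 ± 0.08 in *F*-cKO (edgeR adjusted *P* = 0.00345) and 0.14 ± 0.08 in *M*-cKO (edgeR adjusted *P* = 0.243). *Spen*, which ties RBPJ to repression, was higher in each, by 0.53 ± 0.07 (edgeR adjusted *P* = 0.00352) and 0.66 ± 0.07 (edgeR adjusted *P* = 9.46e-05).

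Of 5 other receptors and ligands tested, none was higher and 2 were lower in *F*-cKO, and 1 was higher and 2 were lower in *M*-cKO. *Jag2*, the second Serrate-type ligand, was lower in RNA-seq by a log2 change of −0.75 ± 0.09 in *F*-cKO (edgeR adjusted *P* = 0.00299) and −0.39 ± 0.07 in *M*-cKO (edgeR adjusted *P* = 0.00181). *Dlk2*, a non-canonical Delta-like protein, was lower by −1.02 ± 0.19 (edgeR adjusted *P* = 0.00801) and −0.55 ± 0.12 (edgeR adjusted *P* = 0.00639). *Dner*, a neuronal transmembrane protein with Delta-like repeats, had −0.18 ± 0.11 in *F*-cKO (edgeR adjusted *P* = 0.272) and was higher in *M*-cKO, by 0.38 ± 0.09 (edgeR adjusted *P* = 0.00839). *Notch4* and *Dll4*, which are used by endothelium, were not called, with log2 changes of −0.13 ± 0.15 and −0.27 ± 0.15 in *F*-cKO and −0.08 ± 0.13 and −0.26 ± 0.15 in *M*-cKO. *Dlk1* was below the filter on low counts in RNA-seq. The 9 endothelial markers summed to 63.2 to 71.2 FPKM in Ctrl libraries, 46.4 to 52.9 FPKM in *F*-cKO libraries and 48.4 to 66.9 FPKM in *M*-cKO libraries, and their part in these values was not tested.

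Among 9 genes of inhibition and turnover, 1 was higher and 2 were lower in each knockout. *Dtx4*, a Deltex ubiquitin ligase, had log2 changes of −0.98 ± 0.18 in *F*-cKO (edgeR adjusted *P* = 0.00643) and −0.63 ± 0.16 in *M*-cKO (edgeR adjusted *P* = 0.0124). *Bend6*, a corepressor that antagonizes Notch in neurons, was also lower in each, at −0.47 ± 0.12 in *F*-cKO (edgeR adjusted *P* = 0.0211) and −0.71 ± 0.10 in *M*-cKO (edgeR adjusted *P* = 0.000549). Of 11 genes of ligand endocytosis and receptor glycosylation, 2 were higher and 2 lower in *F*-cKO, and 3 were higher and 3 lower in *M*-cKO. Of 10 genes of receptor cleavage, 1 was higher and 1 lower in *F*-cKO, and 2 were higher and 1 lower in *M*-cKO. Of 4 other *Hes* and *Hey* genes tested, none was called in *F*-cKO and 1 was higher in *M*-cKO.

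In Ribo-seq of *M*-cKO, 5 of 61 listed genes were higher and 2 lower, beside 7.13% and 7.5% of all genes, so the share that was higher was near the background. The higher ones include *Neurl1a*, a ubiquitin ligase acting on ligands, with a log2 change of 1.42 ± 0.32 (edgeR adjusted *P* = 0.0285), *Maml3* with 1.08 ± 0.18 (edgeR adjusted *P* = 0.0153) and *Dner* with 0.65 ± 0.11 (edgeR adjusted *P* = 0.0154). The lower ones were *Dtx4* with −0.68 ± 0.13 (edgeR adjusted *P* = 0.0197) and *Maml2* with −0.48 ± 0.12 (edgeR adjusted *P* = 0.0372). For translation efficiency in *M*-cKO, *Jag2* was higher by 0.78 ± 0.15 (edgeR adjusted *P* = 0.0172) and *Spen* was lower, at −0.57 ± 0.14 (edgeR adjusted *P* = 0.0399), so 1 of 60 tested in each direction, near the 1.42% and 2.42% of all genes. None of the list was called in Ribo-seq or translation efficiency of *F*-cKO by edgeR.

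Across the 9 RNA-seq libraries, the genes whose log2 CPM ran closest to *Hes1* among 13513 genes with a mean FPKM of at least 1 were *Mfap3* (Pearson's r = 0.986), *Nfatc3* (0.981) and *Spag5* (0.981). Those closest to *Hes5* were *Rpl13a* (0.972), a locus without an Ensembl identifier (0.941) and *Gnpda1* (0.933). Among the members, r with *Hes1* was 0.973 for *Dll1*, 0.953 for *Nrarp*, 0.882 for *Notch1*, 0.705 for *Hes5* and 0.0336 for *Jag1*. For *Hes5* it was highest with *Notch3*, at 0.804, and lowest with *Jag1*, at −0.415. These values are descriptions over 9 libraries of 3 genotypes, which share group differences and depth.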

How the data were processed

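RNA-seq and Ribo-seq libraries were made from cortices at E15.5 and were put in groups by the genotype in their labels. For RNA-seq, the authors aligned paired-end reads with HISAT2 2.0.5 and deposited counts per gene, and the FPKM values the authors made from the same reads. For Ribo-seq, the authors mapped fragments with TopHat2, counted them with HTSeq, and deposited the counts and RPKM values. The submitters' processing notes name mm10; the RNA-seq counter and use of strand are not given in the sources used here. In Ribo-seq, 40490 genes with blanks in 8 libraries were not used.

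Counts were tested in R 4.3.3 with edgeR 4.0.16 (filterByExpr with minimum count 10 and minimum total 15, TMM scaling, quasi-likelihood test, Benjamini-Hochberg adjustment over all genes, threshold 0.05), each comparison over its own 6 libraries. Translation efficiency was the assay by genotype interaction over 12 libraries, scaled within each assay. SE was the log2 change divided by the square root of F. Replicate numbers come from the labels, which call them biological repeats but do not say whether animals were pooled. The methods can be read as taking the Ribo-seq cortices of a group from the same litter, so p-values measure the spread between these samples only. Gene positions and promoters came from RefSeq (GRCm38.p6), with words searched on both strands.

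The 10 genes and all lists were chosen with earlier results of these data known. Named were all 10 genes, every other receptor and ligand, up to 3 called list genes of largest change in each direction per knockout comparison with Ctrl, and the 3 genes most like *Hes1* and *Hes5*. Alternatives were DESeq2 1.42.0, RLE scaling, no filter, all libraries in a fit, a replicate block, protein-coding genes only, each library left out, group medians and, added after seeing the data, TMM over both assays together.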

Additional observations from a re-analysis of the deposited data

Results flagged for a closer look

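Notch genes were examined for effects that differ between the knockouts, and 2 of 10 were called in RNA-seq by the direct test of *M*-cKO against *F*-cKO, beside 13.1% of all genes called higher and 14.3% lower, so the count of members is no higher than the background. *Hey1* was higher in *M*-cKO by 0.48 ± 0.10 on the log2 scale (edgeR adjusted *P* = 0.00544), with 3 of 3 *M*-cKO libraries above all *F*-cKO libraries. *Notch2* had a log2 difference of −0.27 ± 0.08 (edgeR adjusted *P* = 0.0294), with 3 of 3 *M*-cKO libraries below all *F*-cKO libraries. Over the alternatives the adjusted *P* of *Hey1* ran from 2.18e-06 to 0.0267 and that of *Notch2* from 0.0102 to 0.119. With 3 libraries per group, no single library was tested as an outlier.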

How the results depend on the processing

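Replicate numbers were not taken as pairs, since the correlations of same-numbered libraries' deviations from their group means ran from −0.306 to 0.205 and no pair of groups had all 3 above 0.1. With the replicate block, 4 members were higher in RNA-seq of *F*-cKO (*Notch1*, *Notch2*, *Notch3* and *Hey1*) and 1 in Ribo-seq of *M*-cKO (*Notch1*), where 7.52% and 4.76% of all genes were higher, *Hes5* lost its RNA-seq call in *M*-cKO (edgeR adjusted *P* = 0.0517), and the log2 difference in translation efficiency between *M*-cKO and *F*-cKO was 0.0556 for *Dll3*, which is negative without it. Leaving out the filter gave 2 members higher in *M*-cKO than in *F*-cKO in RNA-seq, beside 9.21% of all genes. All 9 libraries in a fit gave 0 members lower in that comparison, beside 14.6% of all genes. In Ribo-seq of *M*-cKO such a fit gave 0 members higher, where the share of all genes fell from 7.13% to 0.202%. DESeq2 gave 2 members lower in translation efficiency of *M*-cKO, beside 4.03% of all genes. The RNA-seq difference of *Dll1* between *M*-cKO and *F*-cKO, near 0, turned sign to 0.004175 with DESeq2, 0.00417 with RLE scaling, 0.01859 without the filter, 0.005919 in all 9 libraries and 0.004935 with the replicate block. In translation efficiency of *M*-cKO over all genes, the split of 188 higher and 320 lower became 249 and 156 with TMM over both assays together, 180 and 181 with protein-coding genes only, and 567 and 532 with DESeq2, and no member changed sign there. For members, 643 of the values with a library left out kept direction and side of the threshold. Of the rest, 37 turned sign, 32 lost a call and 8 gained one. With other alternatives 515 values kept both, 6 turned sign, 9 lost a call and 10 gained one. The cause of the changes was not tested.

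With each library left out, members called higher ran from 3 to 8 in RNA-seq of *F*-cKO, from 1 to 2 for *M*-cKO against *F*-cKO, from 0 to 3 in Ribo-seq of *M*-cKO and from 0 to 1 in translation efficiency of *M*-cKO, and those lower from 0 to 1 in RNA-seq of *M*-cKO against *F*-cKO and from 0 to 1 in translation efficiency of *M*-cKO. Genes called higher among all ran from 5.69% to 10.8%, 8.38% to 13.5%, 0.804% to 9.09% and 0.211% to 3.82% in these 4 comparisons in turn, and those called lower from 7.7% to 12.9% in RNA-seq between knockouts and from 0.347% to 5.55% in translation efficiency of *M*-cKO. Log2 changes that turned sign in these fits were, in RNA-seq, −0.18 to 0.0285 for *Jag1* in *M*-cKO and, between knockouts, −0.0642 to 0.0953 for *Dll1*, −0.17 to 0.14 for *Hes1* and −0.0058 to 0.12 for *Nrarp*. In Ribo-seq of *F*-cKO they were −0.24 to 3.01 for *Notch2*, −0.077 to 2.22 for *Jag1*, −0.12 to 0.38 for *Hes1*, −0.17 to 0.40 for *Hes5* and −0.0203 to 0.22 for *Hey1*, and in *M*-cKO −0.031 to 0.46 for *Jag1*. Between knockouts in Ribo-seq they were −2.42 to 0.65 for *Notch1*, −2.83 to 0.42 for *Notch2*, −2.02 to 0.61 for *Notch3*, −2.03 to 0.53 for *Dll1*, −1.15 to 0.63 for *Dll3* and −2.06 to 0.24 for *Jag1*. In translation efficiency of *F*-cKO they were −0.84 to 2.22 for *Notch1*, −0.76 to 2.49 for *Notch2*, −0.59 to 2.02 for *Notch3*, −0.0561 to 2.51 for *Dll1*, −0.21 to 1.58 for *Dll3*, −0.15 to 2.13 for *Jag1* and −0.35 to 0.22 for *Hes5*, and in *M*-cKO −0.23 to 0.00114 for *Notch2*. Between knockouts in translation efficiency they were −2.33 to 0.74 for *Notch1*, −2.56 to 0.69 for *Notch2*, −2.29 to 0.32 for *Notch3*, −2.02 to 0.54 for *Dll1*, −0.82 to 0.96 for *Dll3* and −1.88 to 0.41 for *Jag1*. For the receptors and ligands, those in Ribo-seq and translation efficiency that involve *F*-cKO turned sign without *F*-cKO replicate 2 of Ribo-seq, and *Dll3* in translation efficiency between knockouts also without *M*-cKO replicate 3 of Ribo-seq.

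Ribo-seq counts of *Hes5*, *Nrarp* and *Dll3* were low. Levels as CPM per length were not run. Medians in place of means made a large difference in Ribo-seq of *F*-cKO, where replicate 2 sets the mean: *Notch2* had a mean of 9.81 and a median of 1.79 RPKM, and the Ribo-seq to RNA-seq ratio of *Notch1* was 0.786 from means and 0.181 from medians.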
